A study of Homo sapiens with 6 samples.

Results

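The genes described here are 35 named genes of the ATF4 programme, out of 26286 genes listed in the 2 deposited count tables. They were matched by gene symbol, and the list was drawn up with earlier results of these data known. All 35 were listed, and all 35 passed the filter on low counts, although NUPR1 passed it only through the pimasertib libraries. By role they comprise 7 transcription regulators (ATF4, DDIT3, CEBPB, CEBPG, TRIB3, NUPR1, JDP2), 3 brakes on growth signalling and translation (SESN2, DDIT4, EIF4EBP1), 7 genes of amino acid synthesis (ASNS, PSAT1, PHGDH, PSPH, ALDH18A1, PYCR1, GPT2) and 3 genes of mitochondrial one-carbon metabolism (SHMT2, MTHFD2, ALDH1L2). The other members are 12 cytosolic aminoacyl-tRNA synthetases (CARS, AARS, GARS, WARS, SARS, MARS, NARS, EPRS, IARS, LARS, TARS, YARS) with the tRNA export receptor XPOT, and the surface receptor VLDLR with the secreted glycoprotein STC2.

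ATF4 is a transcription factor whose protein is made when the initiation factor eIF2 is phosphorylated by one of its stress-sensing kinases, or when mTORC1 signalling is high. It pairs with C/EBP proteins at composite C/EBP-ATF response elements and raises genes for amino acid synthesis, amino acid uptake, the serine-linked folate pathway of mitochondria and the charging of tRNAs. Because ATF4 is controlled largely at translation, its mRNA and its protein need not move together, and only mRNA was measured here.

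RNA was sequenced from HT-1080 cells, an established human fibrosarcoma line, after 48 h with the DMSO vehicle, with 2 µM palbociclib or with 500 nM pimasertib. Palbociclib inhibits the cyclin-dependent kinases CDK4 and CDK6, and pimasertib inhibits the kinases MEK1 and MEK2 upstream of ERK. Each group had 2 libraries, 6 in all, and every group comes from this single line, grown per the labels' protocols in serum-containing DMEM to which nonessential amino acids had been added. The labels number the replicates without saying that they were separate cultures, so p-values reflect only how far these libraries spread, and part of that spread may be technical.

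Library totals ran from 13607490 to 17500655 counts, and 3 counts corresponded to 0.171 to 0.2205 CPM (library-scaled counts). The 13 genes encoded in mitochondrial DNA took a share of counts that was higher in replicate 2 of every group, at 5.67%, 6.31% and 8.76% against 3.21%, 4.57% and 4.25% in replicate 1 of DMSO, palbociclib and pimasertib. Of the mesenchymal markers 8 of 8 were present, with summed levels of 2611 to 5349 FPKM over the 6 libraries, which does not by itself identify the line. Epithelial markers summed to at most 7.60 FPKM, in a palbociclib library, with ESRP1 at 0 and KRT19 at up to 6.74 FPKM. Leukocyte markers summed to at most 0.495 FPKM and endothelial markers to at most 0.417 FPKM, with PECAM1 at 0. Levels below are CPM scaled by TMM, given per library as replicate 1 and replicate 2. Log2 fold changes carry their SE and the Benjamini-Hochberg adjusted p of edgeR's quasi-likelihood test over 14839 genes, and a gene was called when that p was under 0.05. Positions of genes follow the deposited tables, which use GRCh37.

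The promoters of these genes were read for the response element that ATF4 and C/EBP proteins share, which describes the regulatory sequence at the genes whose levels follow. RefSeq promoter windows on GRCh38.p14, from 250 bases before to 50 bases after a transcription start, were given for 26 of the 35 genes, 10 of them under a newer symbol such as CARS1 for CARS. The core TGATGNAA, searched on both strands, lay in a window of 10 of these 26 genes (38.5%), or in 10 of their 40 start windows (25.0%). It lay in 1270 of 35116 windows of the whole RefSeq table (3.62%). It was found for 7 of the 10 synthetases with an entry (CARS, AARS, GARS, MARS, NARS, IARS, TARS), for the asparagine synthetase gene ASNS and for the regulators CEBPG and JDP2, and not in the windows of WARS, SARS and EPRS. The different element TGACGTCA, a full cyclic AMP response element, lay in 0 of the 26 genes and in 649 windows of the table (1.85%). The genes were listed as members of the ATF4 programme, so these shares describe the list and are no independent evidence. The sequences below show where the core sits, with its 8 bases in capitals. They run 5′ to 3′ along the gene, so that a core on the opposite strand reads TTGCATCA or TTTCATCA; ASNS is shown for all 250 bases before its start and the other genes for 40 bases before and 8 bases after the core.
ASNS (chr7:97872409-97872658, minus strand): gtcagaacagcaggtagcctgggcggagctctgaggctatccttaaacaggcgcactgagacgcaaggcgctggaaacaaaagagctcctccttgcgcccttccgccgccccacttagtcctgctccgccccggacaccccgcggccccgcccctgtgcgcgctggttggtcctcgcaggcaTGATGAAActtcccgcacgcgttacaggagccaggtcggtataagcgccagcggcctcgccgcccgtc
CEBPG (chr19:33374031-33374086, plus strand): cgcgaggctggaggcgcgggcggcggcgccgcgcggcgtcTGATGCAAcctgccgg
JDP2 (chr14:75427966-75428021, plus strand): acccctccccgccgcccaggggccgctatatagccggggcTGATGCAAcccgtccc
CARS (chr11:3057410-3057465, minus strand): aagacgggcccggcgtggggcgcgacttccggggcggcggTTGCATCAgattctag
AARS (chr16:70289678-70289733, minus strand): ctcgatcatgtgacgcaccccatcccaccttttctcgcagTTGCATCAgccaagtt
GARS (chr7:30594805-30594860, plus strand): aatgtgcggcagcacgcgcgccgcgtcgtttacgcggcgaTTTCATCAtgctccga
MARS (chr12:57488024-57488079, plus strand): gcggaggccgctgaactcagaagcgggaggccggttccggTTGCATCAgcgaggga
NARS (chr18:57621807-57621862, minus strand): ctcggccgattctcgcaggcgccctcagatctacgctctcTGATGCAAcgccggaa
IARS (chr9:92293695-92293750, minus strand): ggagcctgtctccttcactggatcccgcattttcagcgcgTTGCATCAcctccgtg
TARS (chr5:33440927-33440982, plus strand): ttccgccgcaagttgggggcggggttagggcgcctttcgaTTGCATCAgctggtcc
In the 10 genes the core began between base -187 (AARS) and base 15 (NARS), counted from the transcription start, and in 9 of the 10 it lay within 68 bases of that start. In ASNS it began at base -68 and in CEBPG at base -42, on the gene's own strand in both. A match in these letters says nothing about whether a factor was bound in these cells.

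Compared per length, by the deposited FPKM, the group spanned a wide range in DMSO. EIF4EBP1, the translation repressor that mTORC1 phosphorylates, led with a mean of 129.5 ± 10.8 FPKM (SD, n = 2, as for the values that follow), followed by the synthetases MARS (94.2 ± 15.6) and IARS (88.6 ± 22.6), whose difference was smaller than the spread between replicates. ALDH1L2 (0.358 ± 0.120) and NUPR1 (0.171 ± 0.0357) were lowest. STC2 stood 19th with 21.5 ± 8.09 FPKM in DMSO, reached 35.1 ± 15.9 FPKM in palbociclib and was the highest of the 35 in pimasertib with 109.8 ± 18.7 FPKM. NUPR1 moved from last place to 27th, at 7.98 ± 0.723 FPKM in pimasertib.

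**Figure D1:**
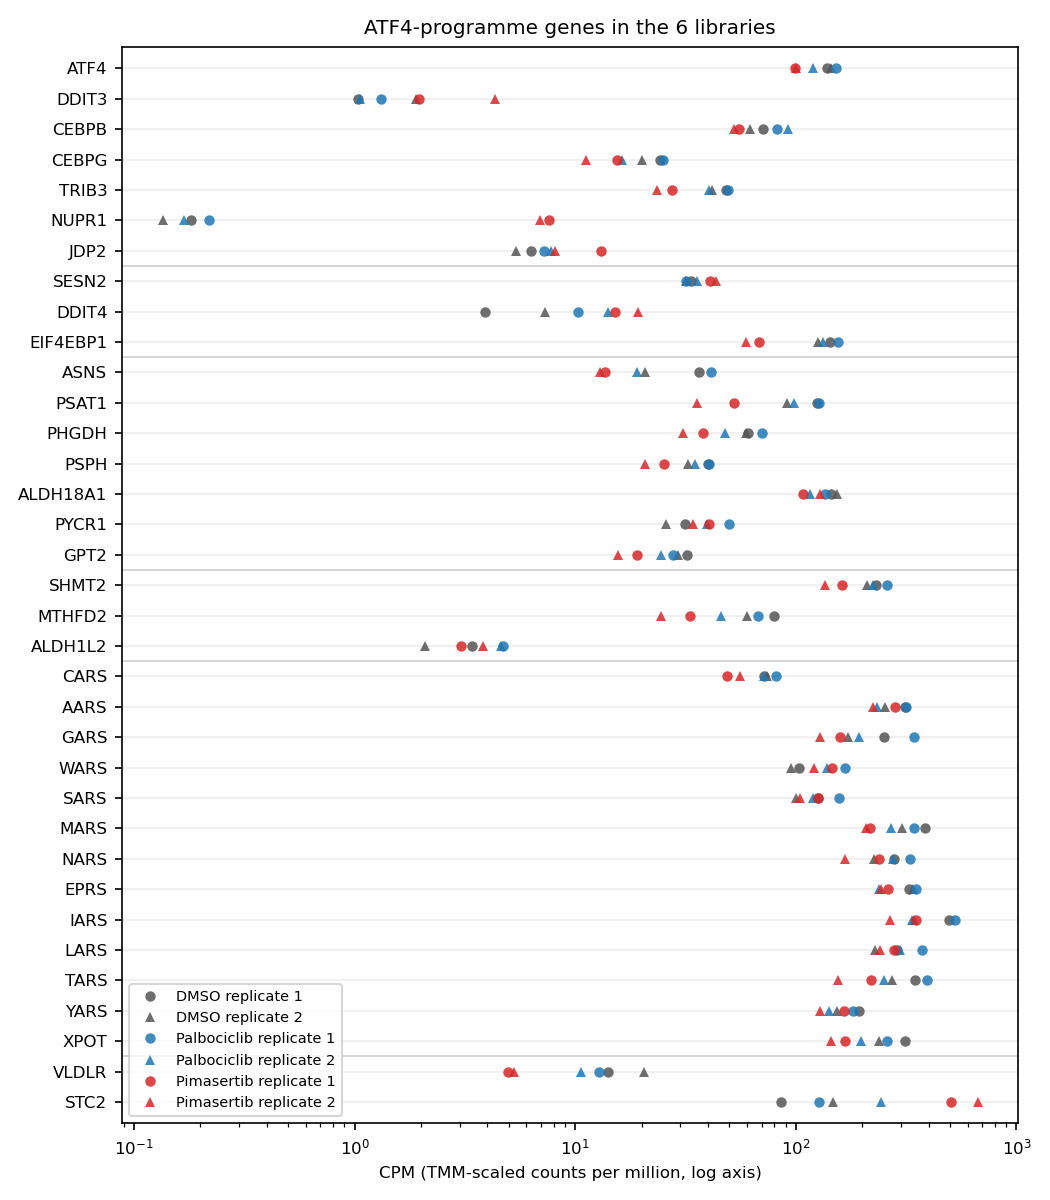
CPM of each gene on a log axis in the 6 libraries, with DMSO in grey, palbociclib in blue and pimasertib in red, circles for replicate 1 and triangles for replicate 2, and grey lines between roles. Red symbols lie left of the grey ones for most genes of amino acid synthesis, while those of NUPR1 (7.60 and 6.91 CPM), STC2 (506 and 667 CPM) and DDIT4 (15.1 and 19.2 CPM) lie right of every other library of the same gene.

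Calls in pimasertib went both ways. Of the 35 genes 8 fell against DMSO: TRIB3, EIF4EBP1, PSAT1, PHGDH, GPT2, MTHFD2, XPOT and VLDLR. NUPR1, DDIT4 and STC2 rose. Over all 14839 genes tested 11.7% were called lower and 11.1% higher, beside 8 lower calls among the 35 (22.9%) and 3 higher calls (8.57%). The lower calls numbered 4 (11.4%) without DMSO replicate 1 and without pimasertib replicate 1, where 6.23% and 5.06% of all genes were called lower. Without pimasertib replicate 2 there was 1 (2.86%), against 3.14% of all genes, so the group then did not exceed the background. NUPR1 passed the filter only through the pimasertib libraries, so its direction had to follow and its call supports nothing. The median log2 fold change of the 35 was -0.44, against 0.0047 over all genes tested, with 24 genes below 0 and 11 above. Palbociclib gave no call among the 35, with a median of 0.051 against 0.0048 for all genes. Both drugs were compared with the same 2 DMSO libraries, so the 2 comparisons are not independent. In bulk libraries a change in RNA per cell and a change in the share of cells that hold the RNA cannot be told apart.

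**Figure D2:**
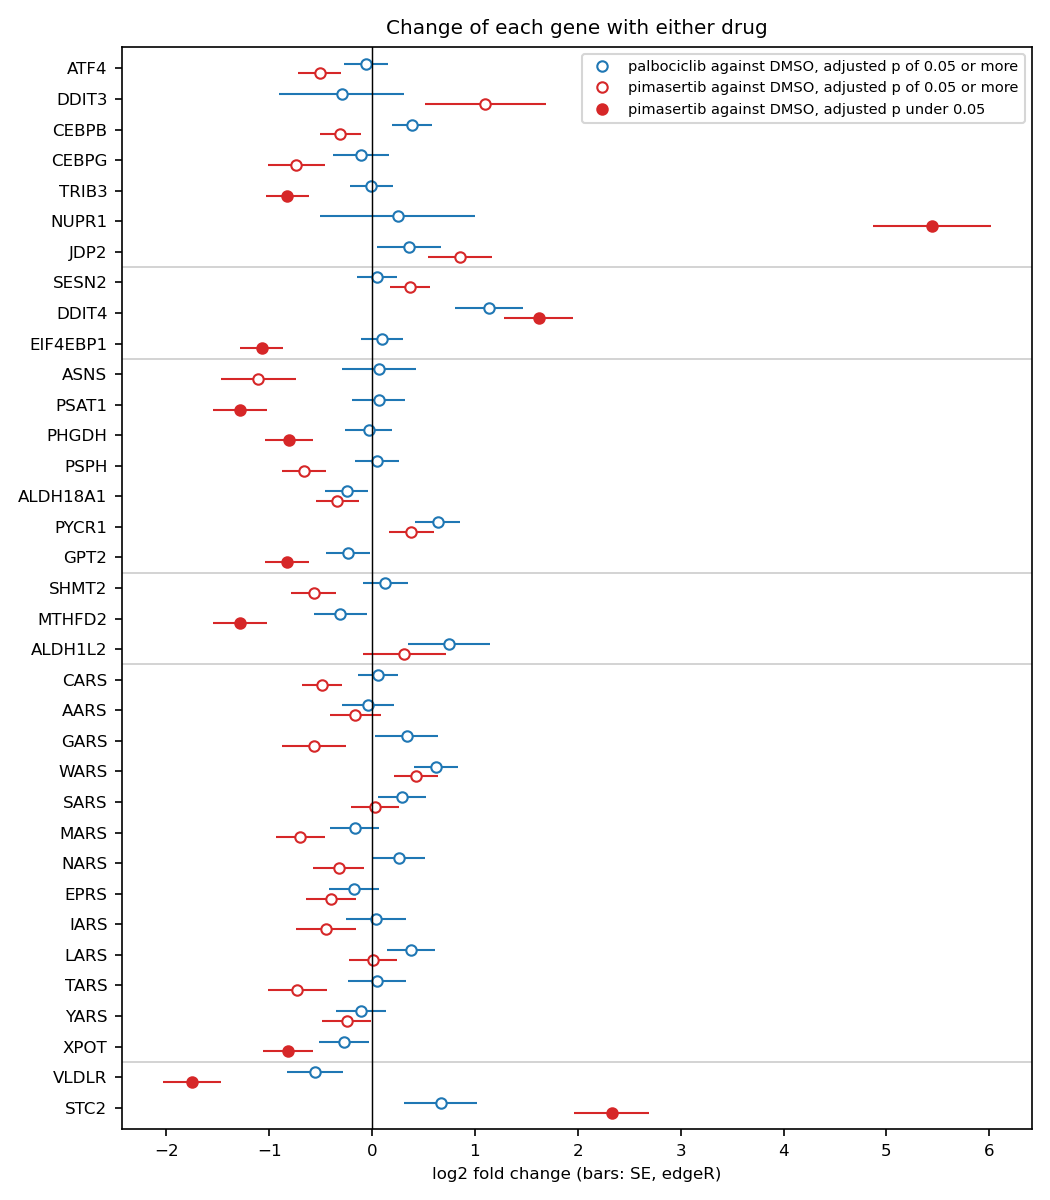
Log2 fold change of each gene against DMSO with its SE, for palbociclib (blue) and pimasertib (red). Filled symbols mark an adjusted p under 0.05; there are 11 in pimasertib, from -1.75 for VLDLR to 5.44 for NUPR1, which passed the filter through pimasertib alone, and 0 in palbociclib.

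Same-numbered libraries of different groups deviated together, so each fold change was also fitted with the replicate number as a block. With the replicate block 6 genes were called higher and 20 lower in pimasertib, including all 11 calls above, where 20.6% and 23.6% of all genes were called higher and lower. The share of the 35 called lower was then 57.1%. The block added 12 lower calls to those above: ASNS, ATF4, CARS, CEBPG, EPRS, GARS, IARS, MARS, NARS, PSPH, SHMT2 and TARS. It added 3 higher calls: JDP2, PYCR1 and WARS. Other fits also called some of these genes, such as ASNS and MARS by DESeq2 and JDP2 without a filter on low counts. A p given below for the block is followed by the range over that gene's 14 alternative fits. For 8 of the 11 calls (all but NUPR1, VLDLR and STC2) a left-out library ended the call, and the adjusted p without pimasertib replicate 2 was then the highest of the 14.

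Among the regulators, ATF4 itself (ENSG00000128272, chromosome 22, positions 39915700 to 39918691) was at 139 and 144 CPM in DMSO, 152 and 119 CPM in palbociclib, and 98.8 and 100.02 CPM in pimasertib. Both pimasertib libraries lay below the other 4. The log2 fold change of pimasertib against DMSO was -0.51 (SE 0.21, adjusted p = 0.108), which was not called; with the replicate block the adjusted p was 0.00613 (range 0.00613 to 0.321). In palbociclib the DMSO and treated libraries overlapped, with a log2 fold change of -0.059 (SE 0.21, adjusted p = 0.919).

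TRIB3, a pseudokinase that ATF4 induces and that in turn restrains ATF4 (ENSG00000101255, chromosome 20, positions 361261 to 378203), was at 48.4 and 41.6 CPM in DMSO, 49.2 and 40.6 CPM in palbociclib, and 27.5 and 23.4 CPM in pimasertib. The pimasertib libraries were the lowest in both replicates and overlapped no other group. TRIB3 fell 1.77-fold (log2 fold change -0.82; SE 0.21, adjusted p = 0.0187). Without pimasertib replicate 2, pimasertib replicate 1 or DMSO replicate 1 it was not called, with adjusted p = 0.153, 0.0606 and 0.104.

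NUPR1, a small stress-induced chromatin protein (ENSG00000176046, chromosome 16, positions 28548606 to 28550495), gave 3 and 2 counts in the DMSO libraries, 3 in each palbociclib library, and 132 and 107 in those of pimasertib. It was thus near the limit of detection in 4 libraries and clearly detected in the other 2. The summed counts, 239 in pimasertib against 5 in DMSO, gave a rate ratio of 46.5 with an exact 95% interval of 19.7 to 144.6, which covers counting error only. The fitted log2 fold change was 5.44 (SE 0.57). It is given as a description, since a gene that passes the filter through 1 group alone has to be higher there. In palbociclib, 6 counts against 5 in DMSO gave a ratio of 1.23 (interval 0.312 to 5.08).

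The other regulators were not called. CEBPG, a C/EBP partner of ATF4, was at 24.3 and 20.0 CPM in DMSO and 15.4 and 11.2 CPM in pimasertib, with a log2 fold change of -0.74 (SE 0.28, adjusted p = 0.08, and 0.00386 with the replicate block, range 0.00386 to 0.405). CEBPB, another C/EBP protein, was at 71.1 and 61.8 CPM in DMSO, 82.1 and 91.8 CPM in palbociclib and 55.3 and 52.2 CPM in pimasertib, so that the 3 groups did not overlap, and neither drug passed against DMSO (adjusted p = 0.334 and 0.287). JDP2, a bZIP repressor, had a log2 fold change of 0.86 in pimasertib (SE 0.31, adjusted p = 0.071, and 0.0175 with the block, range 0.0175 to 0.421), from 6.31 and 5.40 CPM to 13.1 and 8.14 CPM. DDIT3, which encodes CHOP, was at 1.03 and 1.89 CPM in DMSO and 1.96 and 4.33 CPM in pimasertib, with adjusted p = 0.202. DDIT3 lies opposite to the end of MARS, which had 4547.8 counts on average against 30.5 for DDIT3, and with no statement on strand in the submitters' notes used here the reads of this pair cannot be told apart.

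The 3 brakes on growth went different ways in pimasertib. DDIT4 (REDD1), an inhibitor of mTORC1 signalling (ENSG00000168209, chromosome 10, positions 74033678 to 74035794), was at 3.88 and 7.30 CPM in DMSO, 10.3 and 14.15 CPM in palbociclib, and 15.1 and 19.2 CPM in pimasertib. In each replicate number the order was DMSO, palbociclib, pimasertib. DDIT4 rose in pimasertib with a log2 fold change of 1.62 (SE 0.34, adjusted p = 0.00737), though not without pimasertib replicate 2 (adjusted p = 0.0821). In palbociclib the log2 fold change was 1.14 (SE 0.34, adjusted p = 0.101); it was not called, and passed with the replicate block (adjusted p = 0.00306, range 0.00306 to 0.413).

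EIF4EBP1, the eIF4E-binding repressor of cap-dependent translation (ENSG00000187840), was at 142 and 126 CPM in DMSO, 155 and 133 CPM in palbociclib, and 68.2 and 59.7 CPM in pimasertib. Every pimasertib library was below every other library. EIF4EBP1 fell 2.10-fold in pimasertib (log2 fold change -1.07; SE 0.21, adjusted p = 0.00561), and the call was lost without pimasertib replicate 2 (adjusted p = 0.0768). SESN2, an amino acid sensor upstream of mTORC1, was at 33.6 and 31.8 CPM in DMSO, 31.9 and 35.7 CPM in palbociclib and 40.8 and 43.7 CPM in pimasertib, and was not called (adjusted p = 0.193).

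Of the 3 enzymes of serine synthesis 2 fell in pimasertib. The pathway runs from 3-phosphoglycerate through PHGDH, PSAT1 and PSPH to serine. PHGDH (ENSG00000092621, chromosome 1, positions 120202421 to 120286838) was at 60.6 and 59.65 CPM in DMSO, 69.95 and 47.9 CPM in palbociclib, and 37.9 and 30.9 CPM in pimasertib. It fell 1.75-fold in pimasertib (log2 fold change -0.81; SE 0.23, adjusted p = 0.0309). PSAT1 (ENSG00000135069, chromosome 9, positions 80912059 to 80945009) was at 124 and 90.9 CPM in DMSO, 127.5 and 98.2 CPM in palbociclib, and 52.7 and 35.7 CPM in pimasertib. The pimasertib libraries of both genes lay below all 4 others. PSAT1 fell 2.43-fold (log2 fold change -1.28; SE 0.26, adjusted p = 0.00713). PSPH, at 39.99 and 32.5 CPM in DMSO and 25.15 and 20.7 CPM in pimasertib, also did not overlap and just missed the threshold (log2 fold change -0.66; SE 0.22, adjusted p = 0.0501, and 0.00213 with the replicate block, range 0.00213 to 0.306). The PSAT1 call was lost without pimasertib replicate 2 (adjusted p = 0.0951), and the PHGDH call without that library, pimasertib replicate 1 or DMSO replicate 1 (adjusted p = 0.224, 0.0769 and 0.0732).

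ASNS, which makes asparagine from aspartate and glutamine (ENSG00000070669, chromosome 7, positions 97481430 to 97501854), showed how far the replicate numbers can differ. It was at 36.4 and 20.7 CPM in DMSO, 41.2 and 19.1 CPM in palbociclib, and 13.6 and 12.9 CPM in pimasertib. Replicate 1 was well above replicate 2 in DMSO and palbociclib, and both pimasertib libraries lay below those 4. The log2 fold change in pimasertib was -1.11 (SE 0.37, adjusted p = 0.0532), within replicate numbers -1.42 and -0.68, and ASNS was not called; with the replicate block the adjusted p was 0.00137 (range 5.32e-04 to 0.339).

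GPT2, the mitochondrial alanine aminotransferase (ENSG00000166123, chromosome 16, positions 46918290 to 46965209), was at 32.0 and 29.25 CPM in DMSO, 27.8 and 24.4 CPM in palbociclib and 19.0 and 15.6 CPM in pimasertib. The groups did not overlap, and GPT2 fell 1.77-fold in pimasertib (log2 fold change -0.82; SE 0.21, adjusted p = 0.0204). That call was lost without pimasertib replicate 2, pimasertib replicate 1 or DMSO replicate 1 (adjusted p = 0.163, 0.0555 and 0.0997). The 2 enzymes of proline synthesis were not called. ALDH18A1 was at 144 and 154 CPM in DMSO and 107 and 128 CPM in pimasertib (adjusted p = 0.274), and both of those libraries lay below both DMSO libraries, while they overlapped those of palbociclib (135 and 116 CPM). PYCR1 was at 31.4 and 25.9 CPM in DMSO, 49.6 and 39.7 CPM in palbociclib and 40.4 and 34.4 CPM in pimasertib, so that both drugs' libraries lay above both DMSO libraries. PYCR1 was called in neither (adjusted p = 0.149 and 0.226), and in both with the replicate block (adjusted p = 0.00565, range 0.00565 to 0.476, and 0.0377, range 0.0377 to 0.576).

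In the mitochondrial folate pathway, MTHFD2, the dehydrogenase that oxidises methylene-tetrahydrofolate (ENSG00000065911, chromosome 2, positions 74425689 to 74444692), was at 79.9 and 59.9 CPM in DMSO, 67.4 and 45.65 CPM in palbociclib, and 33.1 and 24.4 CPM in pimasertib. DMSO and palbociclib overlapped and pimasertib lay below both. MTHFD2 fell 2.43-fold in pimasertib (log2 fold change -1.28; SE 0.26, adjusted p = 0.00706), a call lost without pimasertib replicate 2 (adjusted p = 0.0946). SHMT2, which feeds serine into this pathway, was at 231 and 209.8 CPM in DMSO, 258 and 223.5 CPM in palbociclib and 162 and 135 CPM in pimasertib. It was not called in pimasertib (log2 fold change -0.57; SE 0.22, adjusted p = 0.0888, and 0.00112 with the replicate block, range 0.00112 to 0.402). ALDH1L2, the mitochondrial 10-formyl-tetrahydrofolate dehydrogenase, was scarce at 2.09 to 4.69 CPM and not called; C12orf45 lies on its opposite strand with 125.2 counts on average against 57.5, so its value is uncertain.

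**Figure D3:**
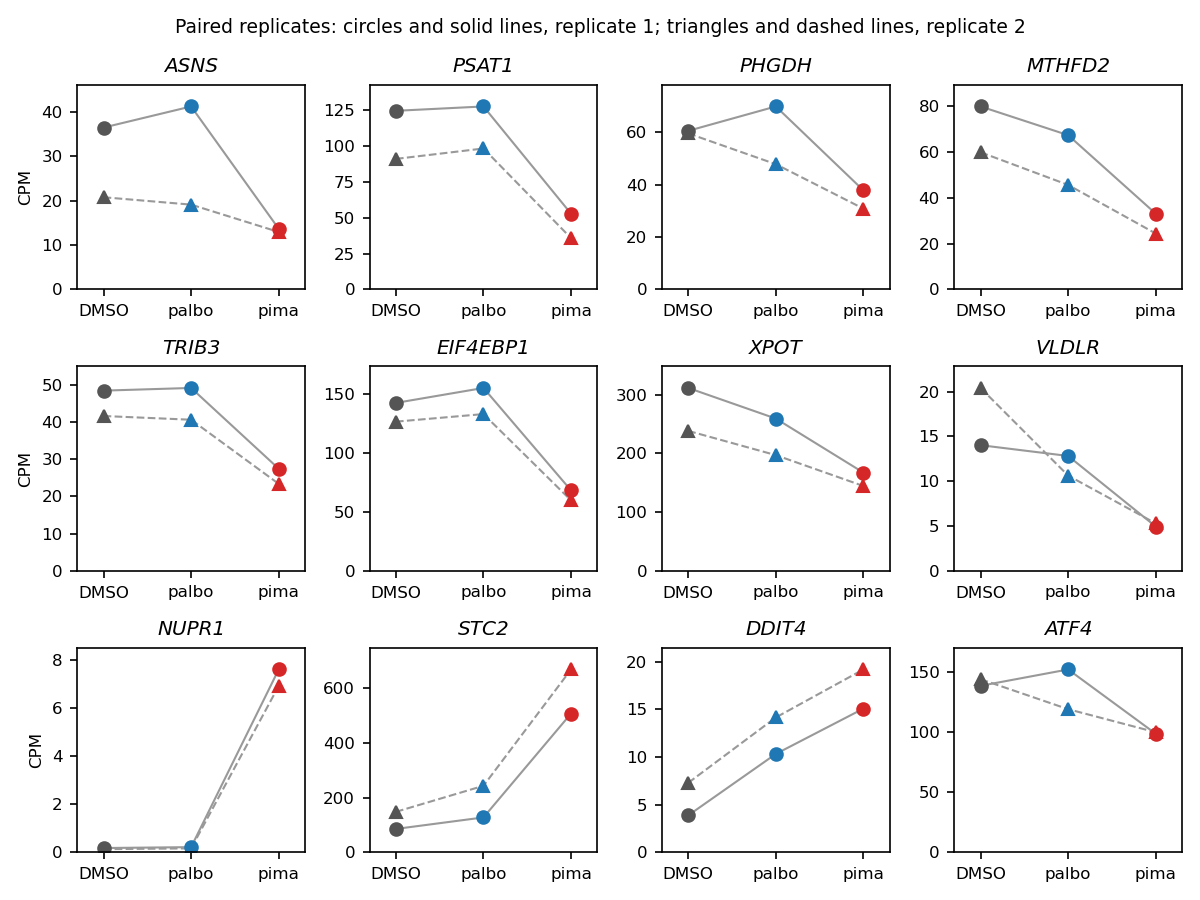
CPM of 12 genes by treatment, with replicate 1 as circles and solid lines and replicate 2 as triangles and dashed lines; each axis starts at 0. In pimasertib PSAT1 (52.7 and 35.7 CPM), MTHFD2 (33.1 and 24.4 CPM) and EIF4EBP1 (68.2 and 59.7 CPM) lie below all other libraries in both replicates, NUPR1, STC2 and DDIT4 above them, and ASNS differs between DMSO replicates by 36.4 against 20.7 CPM.

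The aminoacyl-tRNA synthetases, which charge tRNAs with their amino acids, took most of the counts of the group. Together the 12 took 0.312% and 0.252% of all counts in the DMSO libraries, 0.357% and 0.262% with palbociclib, and 0.254% and 0.202% with pimasertib. By this share pimasertib was lowest and palbociclib highest in each replicate number, and replicate 1 of pimasertib was above replicate 2 of DMSO. In summed CPM, scaled by TMM, replicate 1 of pimasertib (2486) was instead below replicate 2 of DMSO (2566). Replicate 2 of palbociclib (2567) was then level with replicate 2 of DMSO. None of the 12 was called in pimasertib by edgeR, where 3 were lower at an unadjusted p under 0.05 (CARS, MARS, TARS; 25.0%, against 18.7% of all genes). DESeq2 called 1 lower (MARS, adjusted p = 0.0223), and edgeR without DMSO replicate 2 called MARS and TARS lower (adjusted p = 0.0379 and 0.0451). The replicate block called 7 lower (58.3%, against 23.6% of all genes) and WARS higher. Their median log2 fold change was -0.36, with 9 of 12 below 0.

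MARS, the methionine enzyme, was at 384 and 303.5 CPM in DMSO, 342 and 269 CPM in palbociclib and 216 and 208.5 CPM in pimasertib, which overlapped neither of the other groups. Its log2 fold change was -0.70 in pimasertib (SE 0.24, adjusted p = 0.0575, and 4.36e-04 with the replicate block, range 4.36e-04 to 0.326). TARS, the threonine enzyme, was at 346.5 and 272 CPM in DMSO and 219 and 155 CPM in pimasertib (log2 fold change -0.72; SE 0.29, adjusted p = 0.0936, and 2.13e-04 with the block, range 2.13e-04 to 0.459). GARS, the glycine enzyme, was at 252 and 173 CPM in DMSO, 345 and 192 CPM in palbociclib, and 159 and 128 CPM in pimasertib. Replicate 1 was well above replicate 2 in DMSO and palbociclib, and the log2 fold change of -0.56 in pimasertib had adjusted p = 0.213 (0.00468 with the block, range 0.00468 to 0.701). CARS, at 71.8 and 74.3 CPM in DMSO and 48.6 and 55.9 CPM in pimasertib, agreed closely between replicates and had a log2 fold change of -0.48 (SE 0.20, adjusted p = 0.102, and 0.0095 with the block, range 0.0095 to 0.328).

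Not every synthetase was lower. WARS, the tryptophan enzyme, was at 103 and 95.2 CPM in DMSO, 167 and 138 CPM in palbociclib and 146 and 121 CPM in pimasertib. Both drugs' libraries lay above both DMSO libraries. The log2 fold change was 0.62 in palbociclib (SE 0.22, adjusted p = 0.158, and 0.00271 with the block, range 0.00271 to 0.503) and 0.43 in pimasertib (SE 0.22, adjusted p = 0.179, and 0.0105 with the block, range 0.0105 to 0.528). LARS (286 and 228 CPM in DMSO, 278 and 239.6 CPM in pimasertib) and SARS (126 and 100.2 CPM, then 126 and 105 CPM) had log2 fold changes of 0.0079 and 0.027, with SEs of 0.24 and 0.23. The remaining synthetases, AARS, NARS, EPRS, IARS and YARS, had log2 fold changes between -0.44 (IARS) and -0.16 (AARS) in pimasertib. With the block IARS (adjusted p = 0.00918, range 0.00918 to 0.842), NARS (0.0336, range 0.0336 to 0.905) and EPRS (0.0341, range 0.0341 to 0.585) passed. YARS shares its locus with S100PBP on the other strand, whose counts came to 16.2% of those of YARS, and WARS with WDR25 (5.91%).

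XPOT, which carries tRNAs out of the nucleus (ENSG00000184575, chromosome 12, positions 64798130 to 64844907), was at 311 and 238 CPM in DMSO, 259 and 197 CPM in palbociclib, and 167 and 144.5 CPM in pimasertib. It was lowest in pimasertib in both replicates and fell 1.76-fold against DMSO (log2 fold change -0.82; SE 0.24, adjusted p = 0.036). Without pimasertib replicate 2, DMSO replicate 1 or pimasertib replicate 1 it was not called (adjusted p = 0.241, 0.215 and 0.109).

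The replicate numbers differed in this group of genes in every treatment. In DMSO 27 of the 35 genes were lower in replicate 2, with a median log2 difference of -0.22 against -0.027 over all genes. In palbociclib 30 of 35 were lower (median -0.28 against 0.017), and in pimasertib 26 of 35 (median -0.23 against -0.012). For the 12 synthetases the median differences were -0.33, -0.37 and -0.29, with 10, 12 and 11 of 12 lower. The mitochondrially encoded share moved the other way, higher in replicate 2 of each group, and the part of either in the other was not tested. STC2 was higher in replicate 2 in all 3 groups. Within replicate numbers, each of the 11 genes called in pimasertib, NUPR1 included, differed from DMSO in the same direction in both. That had to follow, since the pimasertib and DMSO libraries of these genes did not overlap, and it adds no support to the calls.

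VLDLR, a lipoprotein and reelin receptor (ENSG00000147852, chromosome 9, positions 2621834 to 2654480), was at 14.0 and 20.4 CPM in DMSO, 12.8 and 10.6 CPM in palbociclib, and 4.95 and 5.30 CPM in pimasertib. The 3 groups did not overlap. VLDLR fell 3.36-fold in pimasertib (log2 fold change -1.75; SE 0.28, adjusted p = 0.00198), called in all 6 fits that left out a library, and was not called in palbociclib (log2 fold change -0.55; SE 0.27, adjusted p = 0.315). STC2, a secreted inhibitor of pappalysin proteases (ENSG00000113739, chromosome 5, positions 172741716 to 172756506), was at 85.6 and 148 CPM in DMSO, 127.5 and 243 CPM in palbociclib, and 506 and 667 CPM in pimasertib. It was far higher in pimasertib than anywhere else, while DMSO and palbociclib overlapped. STC2 rose 5.02-fold in pimasertib (log2 fold change 2.33; SE 0.37, adjusted p = 0.00173), also called in all 6 such fits. In palbociclib its log2 fold change was 0.67 (SE 0.35, adjusted p = 0.353, and 0.00456 with the replicate block, range 0.00456 to 0.898).

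Palbociclib was compared with DMSO in the same fit. None of the 35 genes was called in either direction by edgeR, where 1.11% of all genes were called higher and 2.44% lower. At an unadjusted p under 0.05 there were 3 higher (DDIT4, PYCR1, WARS; 8.57%, against 8.40% of all genes) and 0 lower, against 9.58% of all genes. DESeq2 called 1 (DDIT4). With the replicate block 5 were called higher (DDIT4, LARS, PYCR1, STC2, WARS) and 0 lower, beside 8.65% and 11.3% of all genes. LARS, at 371 and 298 CPM in palbociclib, had a log2 fold change of 0.38 (SE 0.24, adjusted p = 0.444, and 0.0321 with the block, range 0.0321 to 0.832). For the serine enzymes PSAT1 and PHGDH and for ASNS the log2 fold changes were 0.067, -0.031 and 0.071, with SEs of 0.26, 0.23 and 0.36. The sign of the median of the 35 was not stable: it was -0.031 without DMSO replicate 2 and -0.14 without palbociclib replicate 1.

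Set against each other, the drugs differed in 7 of the 35 genes, with NUPR1, whose direction had to follow from the filter, among them. STC2 and NUPR1 were higher in pimasertib than in palbociclib, and TRIB3, EIF4EBP1, PSAT1, MTHFD2 and VLDLR were lower, where 5.07% of all genes were called higher and 4.31% lower. Of the 35 log2 differences 29 were below 0, with a median of -0.53 against 0.016 over all genes, and all 12 synthetases were below 0 although edgeR called 0 of them (5, or 41.7%, with an unadjusted p under 0.05, against 11.6% of all genes lower, and 1, GARS, by DESeq2). Without palbociclib replicate 1 the median was -0.34 with 9 of 12 synthetases below 0, and without pimasertib replicate 2 it was -0.45 with 10 of 12. The largest called drops were in PSAT1 (log2 difference -1.35; SE 0.26, adjusted p = 0.00993) and in EIF4EBP1 and VLDLR. EIF4EBP1 differed by -1.17 (SE 0.21, adjusted p = 0.00622) and VLDLR by -1.19 (SE 0.28, adjusted p = 0.0244). STC2 was 3.17-fold higher in pimasertib (log2 difference 1.66; SE 0.36, adjusted p = 0.0158). DDIT4, at 10.3 and 14.15 CPM in palbociclib and 15.1 and 19.2 CPM in pimasertib, was not called between the drugs (log2 difference 0.48; SE 0.32, adjusted p = 0.383).

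Several of these calls between the drugs were lost when a library was left out, which leaves 1 library in its group. Over all genes, too, fewer were called without either pimasertib library or without palbociclib replicate 1. Without pimasertib replicate 2 the 6 calls other than NUPR1 were lost, and the adjusted p was 0.137 for PSAT1, 0.0941 for EIF4EBP1, 0.162 for STC2, 0.159 for VLDLR, 0.343 for MTHFD2 and 0.27 for TRIB3. Without pimasertib replicate 1 the calls of STC2 (0.0603), VLDLR (0.144), MTHFD2 (0.0967) and TRIB3 (0.106) were lost, and without palbociclib replicate 1 those of VLDLR (0.0709), MTHFD2 (0.254) and TRIB3 (0.22). With the replicate block 2 genes were called higher and 21 lower, beside 16.1% and 15.6% of all genes, and the 7 calls were among them. ASNS, at a log2 difference of -1.18 (SE 0.37, adjusted p = 0.0762), was 1 of the 16 added (adjusted p = 0.00168 with the block, range 2.03e-04 to 0.518).

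Neighbouring genes of the same pathways, listed by function, gave the following counts in pimasertib against DMSO, to be read beside the 11.7% of all genes called lower and 11.1% called higher, or 23.6% and 20.6% with the replicate block. Among 11 amino acid transporters 5 fell (45.5%) and 1 rose (5 and 3 with the replicate block). The 5 became 1 (9.09%, against 5.06% of all genes) without pimasertib replicate 1 and 3 without pimasertib replicate 2 (27.3%, against 3.14%). First among them was SLC7A5, the large neutral amino acid carrier, at 482.5 and 574.5 CPM in DMSO, 335 and 315 CPM in palbociclib, and 91.9 and 108 CPM in pimasertib (log2 fold change -2.40; SE 0.24, adjusted p = 1.27e-04). It lay below every DMSO and palbociclib library and was called in all 6 fits that left out a library. The glutamine carrier SLC1A5 (-1.37, adjusted p = 0.00357) and the cationic amino acid carrier SLC7A1 (-1.22, adjusted p = 0.00507) also fell, and the amino acid carrier SLC43A1 rose (1.09, adjusted p = 0.00758). Each of those calls held in 5 of 6 such fits and was lost in the other, without pimasertib replicate 1 for SLC1A5 (adjusted p = 0.0513) and SLC7A1 (0.0639) and without pimasertib replicate 2 for SLC43A1 (0.0855). The glutamine carrier SLC38A1 (-1.13, adjusted p = 0.00659) and SLC36A4 (-0.74, adjusted p = 0.028) were the remaining calls. SLC38A1 was lost without pimasertib replicate 1 or 2 (adjusted p = 0.0726 and 0.0507), and SLC36A4 without either of those or DMSO replicate 2 (adjusted p = 0.0745, 0.199 and 0.140). In palbociclib 1 transporter, SLC1A4, was called lower (log2 fold change -1.33; SE 0.29, adjusted p = 0.0321), from 12.8 and 13.2 CPM to 5.86 and 4.53 CPM, and this held in 2 of the 6 fits, with an adjusted p of up to 0.154 (without palbociclib replicate 2). With the replicate block 7 transporters were called lower in palbociclib (63.6%, against 11.3% of all genes) and 0 higher.

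Charging enzymes outside the group were called lower at shares of 18.2% and 12.5%. Of 11 other cytosolic synthetase and multisynthetase complex genes 2 fell in pimasertib, the phenylalanine subunits FARSB (log2 fold change -0.92, adjusted p = 0.0255) and FARSA (-0.78, adjusted p = 0.0494), and 10 of 11 were below 0. With the replicate block 5 (45.5%) were called lower. Of 16 mitochondrial synthetases tested 2 fell, LARS2 (-0.78, adjusted p = 0.0252) and NARS2 (-0.77, adjusted p = 0.0453), and 11 of 16 were below 0. With the block 9 (56.2%) were called lower. Of 16 genes of the eIF2 pathway 2 fell (12.5%), the eIF2B subunits EIF2B2 (-1.26, adjusted p = 0.00293) and EIF2B3 (-0.91, adjusted p = 0.0345); with the block 5 (31.2%) were called lower and 2 higher. The 4 eIF2 kinases had log2 fold changes against DMSO from -0.24 (EIF2AK4, the amino acid sensor GCN2) to 0.54 (EIF2AK3, the ER-resident PERK), with adjusted p from 0.210 to 0.998. Between the drugs 1 of the 16 was called higher in pimasertib (6.25%, against 5.07% of all genes), EIF2AK3 (log2 difference 1.30, adjusted p = 0.0219). The 1 called lower (6.25%, against 4.31%) was EIF2B2 (-1.15, adjusted p = 0.00805). Both calls were lost in some fits that left out a library.

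Of 17 other ATF4 targets tested, 5 were called higher in pimasertib (29.4%) and 1 lower (5.88%), or 7 (41.2%) and 5 (29.4%) with the replicate block. Both counts of higher calls include INHBE, whose direction had to follow from the filter, so these shares are too high as a comparison with all genes. SLC7A11 is also on the transporter list and PPP1R15A on the eIF2 pathway list. Without pimasertib replicate 2 the 5 became 2 (11.8%, against 3.58% of all genes). SQSTM1, an autophagy receptor, rose from 357 and 334 CPM in DMSO to 1243 and 1137 CPM (log2 fold change 1.78; SE 0.23, adjusted p = 5.75e-04). CTH, which makes cysteine from cystathionine, rose from 0.607 and 2.09 CPM to 13.3 and 9.30 CPM (3.08, adjusted p = 0.0027). ATF3, a stress-induced bZIP factor, rose as well (1.98, adjusted p = 0.00499; 0.0503 without pimasertib replicate 2), and so did HERPUD1, a component of ER-associated degradation (1.03, adjusted p = 0.0144), which was lost without pimasertib replicate 2 (0.113) and without DMSO replicate 1 (0.107). INHBE, an inhibin chain, was at 0.3035 and 0.473 CPM in DMSO, 0.586 and 0.895 CPM in palbociclib, and 3.74 and 5.23 CPM in pimasertib. Like NUPR1 it passed the filter, at 0.617 CPM in at least 2 libraries, only through pimasertib, so that its call supports nothing. ATF5, a close relative of ATF4, fell (-0.74, adjusted p = 0.0282). Of 11 further folate genes 3 rose (27.3%) and 2 fell (18.2%), with ALDH1L1, the cytosolic counterpart of ALDH1L2, up from 44.7 and 32.4 CPM to 145 and 122 CPM (1.79, adjusted p = 8.93e-04). AMT also rose (2.10, adjusted p = 0.042). MTHFD1L, the mitochondrial synthetase of 10-formyl-tetrahydrofolate, fell (-1.34, adjusted p = 0.00141), and so did MTHFD1 (-0.83, adjusted p = 0.0383). A last list held 12 genes of the ATF6 and XBP1 branches, with ER chaperones and the transcription factors XBP1 and ATF6 among them. Of these 1 rose (8.33%), DNAJB9 (1.17, adjusted p = 0.0303). The 2 that fell (16.7%) were SDF2L1 (-1.14, adjusted p = 0.00651) and XBP1 itself (-0.75, adjusted p = 0.042). The block called 5 higher and 2 lower.

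Of these neighbours, SLC7A5, EIF2B2, SQSTM1, CTH, ALDH1L1 and MTHFD1L were called in all 6 fits that left out a library. Without pimasertib replicate 2 the adjusted p was 0.214 for FARSB, 0.242 for FARSA, 0.0739 for LARS2, 0.278 for NARS2, 0.223 for EIF2B3, 0.186 for ATF5, 0.275 for MTHFD1, 0.376 for AMT, 0.189 for DNAJB9 and 0.129 for XBP1. All of those were also lost without pimasertib replicate 1 and without 1 or both of the DMSO libraries, and SDF2L1 was lost without pimasertib replicate 1 (adjusted p = 0.0633). FARSA and NARS2 were also lost without palbociclib replicate 2 (adjusted p = 0.0557 and 0.0519).

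**Figure D4:**
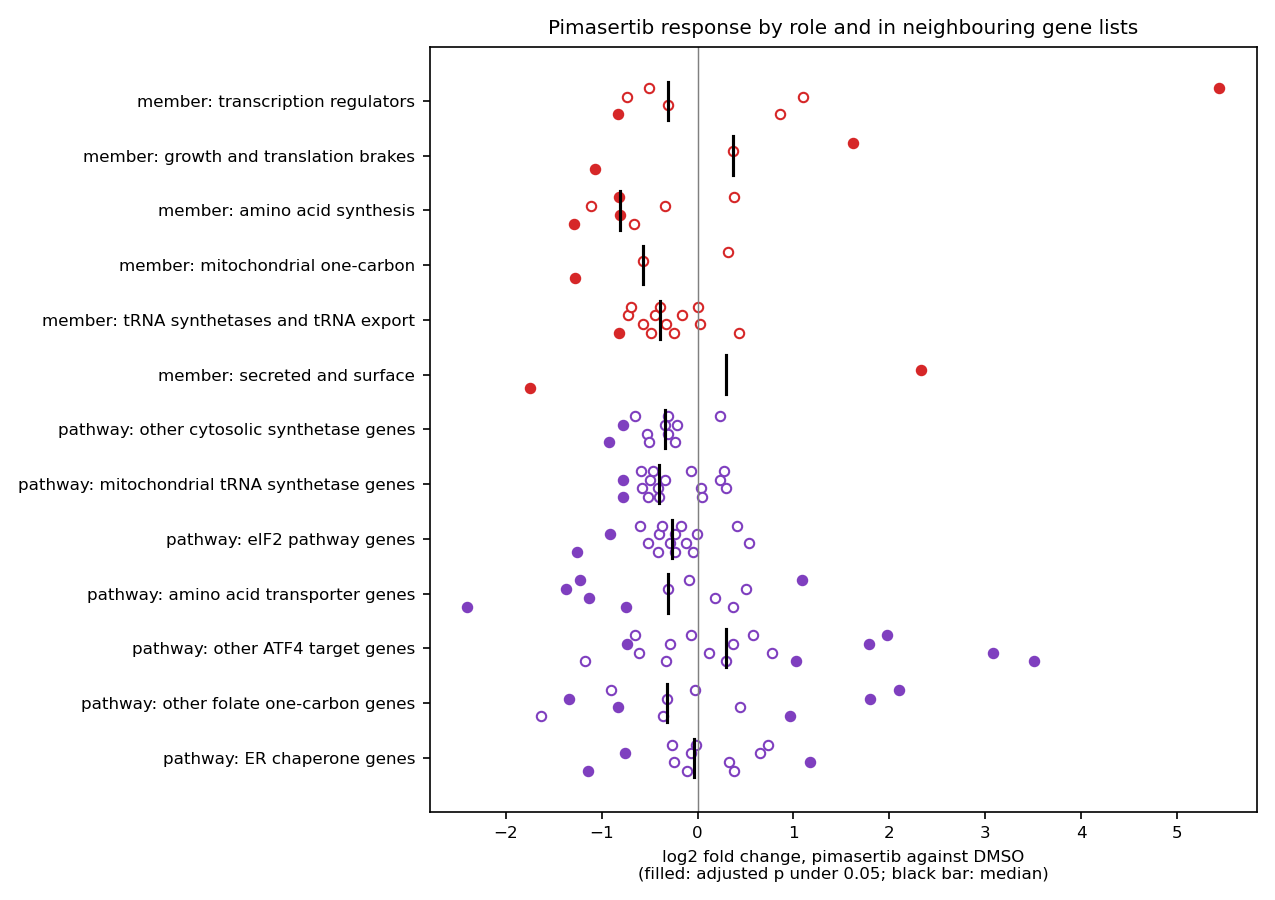
Log2 fold change of every tested gene in pimasertib against DMSO, by role within the group (red) and in the neighbouring lists (purple), with called genes filled and the median as a black bar. The amino acid synthesis genes have a median of -0.81 and the 11 transporters one of -0.31, while the other ATF4 targets have a median of 0.30 and reach 3.51 for INHBE, which passed the filter through pimasertib alone.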

How the data were processed

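RNA sequencing was done on 6 libraries of HT-1080 cells, 2 per treatment. Per the submitters' processing notes the builds were hg19 and GRCh37 and the tools STAR 2.5, HTSeq 0.6.1, CASAVA and DESeq2, in no stated order; whether counting used strand is not given there. The authors deposited 1 table per drug with raw read counts per gene for its libraries and the DMSO libraries, FPKM, group means of a normalized signal, and their own log2 fold changes with p-values. Only the deposited counts and FPKM were used, the FPKM to compare levels between genes. A gene missing from 1 table was counted 0 there, since every such gene had 0 DMSO counts, and the DMSO counts of the 22559 shared genes were identical.

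Differences were tested on the counts with edgeR 4.0.16 (R 4.3.3; filterByExpr with minimum count 10 and minimum total 15, TMM, glmQLFit robust, glmQLFTest, two-sided), as 1 model of 3 groups over 6 libraries with 3 residual degrees of freedom. Benjamini-Hochberg adjustment ran over all 14839 genes, with a threshold of 0.05. The SE is the absolute log2 fold change divided by the square root of F. DESeq2 1.42.0, the replicate number as a block, other scalings and filters, the 4 libraries compared and leaving out each library were alternatives. The edgeR step was tested on counts simulated without a replicate effect, so that test does not cover the shared deviations of same-numbered libraries. The 2 libraries of a group differed by more than sampling noise (chi-square 40.7 to 54.9 per degree of freedom).

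The labels number replicates 1 and 2 in each group. Differences between replicate 2 and replicate 1 in log2 CPM correlated across 14839 genes between DMSO and palbociclib (r = 0.3975), DMSO and pimasertib (0.351) and palbociclib and pimasertib (0.345), all above 0.1, so the numbers were taken to pair the samples. The model of 3 groups left this pairing out, so calls not given as block calls ignore it.

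Members, roles, neighbouring lists and tests were chosen with earlier results of these data known. All 35 members are named, and of each neighbouring list up to 3 called genes per direction with the smallest p, besides SLC38A1, SLC36A4, ATF3, HERPUD1 and the eIF2 kinases, named after their values were seen. One called folate gene is not reported here. Counting error is all that intervals and the limit of 3 counts include. They treat every read as a separate molecule, which reads copied by PCR are not. Promoters came from RefSeq (GRCh38.p14), matched by current symbol.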

Additional observations from a re-analysis of the deposited data

How the results depend on the processing

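The direction of no log2 fold change reversed under any alternative among the 35 genes in 3 comparisons where either fit made a call; against DMSO in pimasertib 441 values of the alternatives stayed on their side of the threshold, 32 passed it and 16 lost it, in palbociclib 479, 9 and 0, and between the drugs 430, 45 and 14. With the replicate block genes called over all tested went from 526 to 2953 in palbociclib, from 3376 to 6551 in pimasertib and from 1393 to 4703 between the drugs. Genes of the group called higher went from 0 to 5 in palbociclib and from 3 to 6 in pimasertib, and those called lower from 8 to 20 in pimasertib and from 5 to 21 between the drugs. The block kept 525 of the 526 calls over all genes in palbociclib, 3374 of 3376 in pimasertib and 1392 of 1393 between the drugs, and in the group all 11 in pimasertib and all 7 between the drugs. DESeq2 called 882 genes in palbociclib, 1 of the group higher there, and 10 of the group lower between the drugs. Without a filter on low counts there were 1097 calls in palbociclib, 1 of the group higher, and 2256 between the drugs, 9 of the group lower. With only the 4 libraries compared there were 325 calls in palbociclib and, between the drugs, 10 of the group lower. The cause of these shifts was not tested. Leaving out 1 library gave 334 to 763 calls in palbociclib, 1055 to 4084 in pimasertib and 456 to 1940 between the drugs. In the group it gave 0 to 1 higher in palbociclib, 2 to 4 higher and 1 to 13 lower in pimasertib, and 1 to 2 higher and 0 to 10 lower between the drugs, with the lowest counts of lower calls without pimasertib replicate 2. A lone library is then assumed to vary like the other groups. Depth limits the values of NUPR1, DDIT3 and ALDH1L2, whose counts were low.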
